A study of Homo sapiens with 6 samples.

Results

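Mitochondrial ribosomal proteins were compared between parental PC9 cells and the drug-tolerant persister cells (PSPC9) derived from them, at the level of messenger RNA. The genes were taken by symbol from the table of gene counts: every MRPL or MRPS symbol with a number and, in some, a letter A to C, together with DAP3, GADD45GIP1 and PTCD3. This gave 81 of the 36459 symbols in the table, and all 81 were among the 14626 genes that passed the filter on low counts. The genes are spread over the genome, with at most 9 of them on a chromosome (chromosomes 1 and 2). By their place in the assembled ribosome, which like structure name, site and bacterial homology was written from general knowledge and not checked against a structure, 52 encode proteins of the large subunit and 28 encode proteins of the small subunit. The remaining gene, MRPS36, encodes a component of 2-oxoglutarate dehydrogenase (KGD4) despite its symbol and was kept apart. The letter in the symbol does not always give the subunit: MRPS30 (mL65) and MRPS18A (mL66) sit in the large subunit and were counted there.

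The mitochondrial ribosome translates the few messenger RNAs encoded in mitochondrial DNA, all of which specify subunits of the oxidative phosphorylation complexes. Its RNA comes from the mitochondrial genome, but every one of its proteins is encoded in the nucleus, made on cytosolic ribosomes and imported. Some of these proteins have bacterial homologs and belong to the conserved core of the particle. Others were added during evolution of the organelle and cover the core, line the messenger RNA entry or anchor the particle to the inner membrane.

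PC9 cells are an established line of human NSCLC (non-small cell lung cancer). The PC9 group was untreated, and the PSPC9 group consisted of the survivors of 6 days in 15 µM erlotinib, which inhibits the receptor for epidermal growth factor. Each group had 3 libraries of poly-A selected RNA. The PC9 libraries came from 3 independent cultures, and the PSPC9 libraries were pools drawn from 9 cultures, so the spread between them is that of pools. All cells are of 1 line. Each library held between 29476725 and 34893782 estimated gene counts. The 6 epithelial markers summed to 7519 to 8051 CPM (counts per 1e6 counts) in PC9 and 5936 to 6298 CPM in PSPC9, where EPCAM, KRT8, KRT18 and KRT19 were lower and CDH1 and KRT7 higher without overlap. The 4 leukocyte markers summed to at most 1.29 CPM, and the 3 endothelial markers to 8.05 to 8.82 CPM in PC9 and 3.25 to 3.80 CPM in PSPC9. The summed level of 4 fibroblast markers was 10.4 to 11.0 CPM in PC9 and 27.4 to 30.8 CPM in PSPC9, nearly all of it COL1A1. The part of these differences in the results was not tested. CPM values are relative to the other RNA in the same library, scaled by TMM, so a lower RNA content per cell and a smaller number of expressing cells cannot be told apart.

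Differential expression was tested with the quasi-likelihood test of edgeR across all 14626 genes, with Benjamini-Hochberg adjusted p-values and a limit of 0.01. A change is given as log2(PSPC9/PC9) with its standard error (SE). Between these groups 56.8% of all genes tested passed the limit, 28.1% with a lower and 28.7% with a higher level in PSPC9.

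Upstream sequences are given here for some of the most changed genes, without a test of sequence against direction of change. They are the 150 bases before the RefSeq start site, in GRCh38.p14, 5′ to 3′ on the strand of the gene, for genes whose stretch held no annotated exon. Capitals mark a match, on either strand and wholly within the stretch, to a motif described further on. The 4 genes shown first fell in PSPC9 and the last rose. MRPL42, which rose, had such a stretch of 150 bases without a match and is among those not shown.
MRPS21 (chr1:150293711-150293860, plus strand): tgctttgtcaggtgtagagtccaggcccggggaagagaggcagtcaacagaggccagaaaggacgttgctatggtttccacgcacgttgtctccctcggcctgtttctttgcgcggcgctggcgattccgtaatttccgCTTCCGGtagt
MRPS31 (chr13:40771191-40771340, minus strand): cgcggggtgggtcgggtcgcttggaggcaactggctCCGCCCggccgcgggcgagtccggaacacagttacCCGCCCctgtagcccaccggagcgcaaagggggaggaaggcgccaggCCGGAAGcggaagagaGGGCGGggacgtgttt
MRPL16 (chr11:59810779-59810928, minus strand): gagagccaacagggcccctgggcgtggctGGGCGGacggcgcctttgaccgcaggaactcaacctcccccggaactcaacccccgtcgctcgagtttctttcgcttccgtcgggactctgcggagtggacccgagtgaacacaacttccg
MRPL44 (chr2:223957313-223957462, plus strand): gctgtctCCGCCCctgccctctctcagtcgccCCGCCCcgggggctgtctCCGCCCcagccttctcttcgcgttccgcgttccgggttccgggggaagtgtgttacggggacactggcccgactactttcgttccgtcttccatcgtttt
MRPL1 (chr4:77862680-77862829, plus strand): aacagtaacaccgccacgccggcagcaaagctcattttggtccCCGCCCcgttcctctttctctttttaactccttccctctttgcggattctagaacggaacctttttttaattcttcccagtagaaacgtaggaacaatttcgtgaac

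Mitoribosomal messenger RNAs changed by small amounts in PSPC9, more often down than up except, for the large subunit, once the trend with transcript length was taken out. Of the 52 large subunit genes, 13 were lower and 7 were higher, and 32 did not pass the limit. Of the 28 small subunit genes, 11 were lower, 1 was higher and 16 did not pass. The median change was -0.04 for the large and -0.07 for the small subunit, beside -0.01 over all genes tested. Changes ran from -0.60 for MRPS21 to 0.45 for MRPL52, and MRPS21 was the only gene of the 80 whose change exceeded 0.5 in either direction. The median size of change, without sign, was 0.14 for each subunit and 0.33 over all genes tested.

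**Figure D1:**
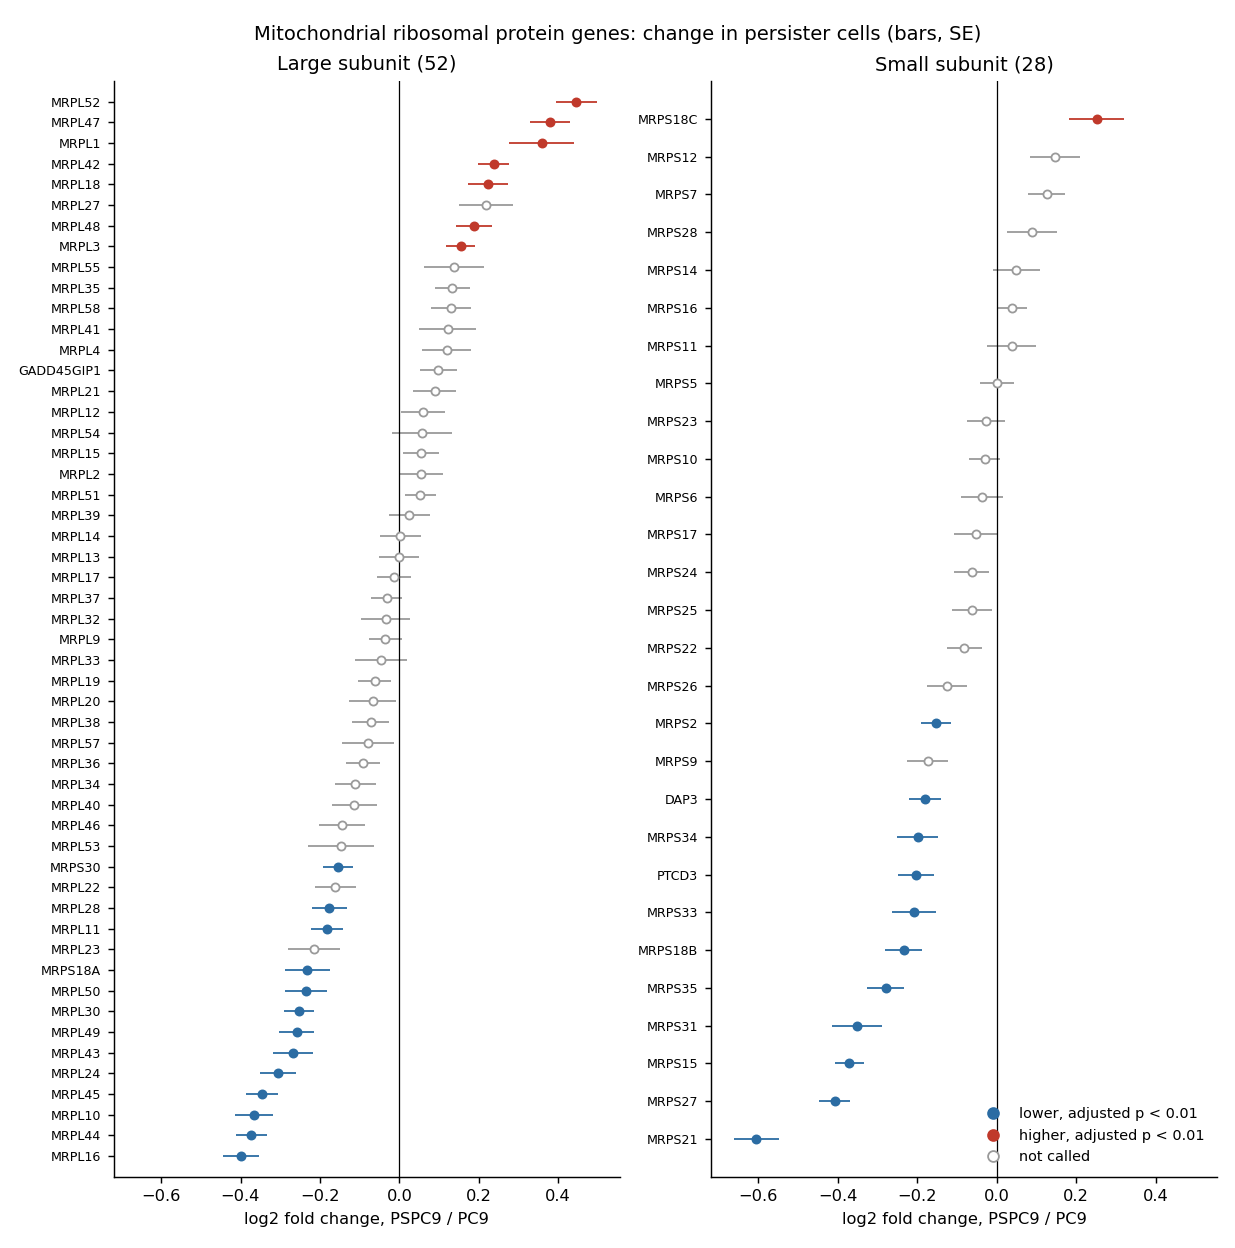
Change of each of the 80 mitoribosomal genes, as log2(PSPC9/PC9) on the horizontal axis with its SE as the bar, ordered within the large subunit (left) and the small subunit (right). Filled blue points (13 large, 11 small) were lower and filled red points (7 large, 1 small) higher at the limit of 0.01, and open points did not pass.

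Read against the background, the share of large subunit genes called lower was 25% and the share called higher 13.5%, beside 28.1% and 28.7% of all genes. In the small subunit 39.3% were lower and 3.57% higher. The libraries of PC9 and PSPC9 did not overlap, with PSPC9 lower, for 18 large and 14 small subunit genes, and with PSPC9 higher for 11 large and 2 small subunit genes, where 35.7% and 35.5% of all genes did so. For the 48 genes of either subunit that did not pass the limit, the 95% intervals of the change lay between -0.36 and 0.37, or 0.779 to 1.29 fold.

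These counts depended on the settings and the libraries. Members are short, with a median transcript length of 1076 bases in the large and 1405 bases in the small subunit against 2852 bases over all genes with a length. Short transcripts as a class were lower in PSPC9. In the length classes and correlations that follow, members have the length used for levels, with medians of 1041 and 1363 bases. All genes have the mean length weighted by counts. Over all genes, those under 1 kilobase had a median change of -0.18 and those over 2 kilobases one of 0.04. Among the 80 members the correlation had the opposite sign, with a Spearman rho of -0.235 between length and change, against 0.213 over the 13905 genes with a length (both across genes). The medians of these 3 length classes, from short to long, had no steady order. They were -0.03, -0.01 and -0.16 in the large subunit and -0.05, -0.15 and -0.03 in the small. In the large subunit 12%, 34.8% and 50% were lower and 12%, 17.4% and 0% higher, with 4 genes over 2 kilobases. In the small subunit 37.5%, 46.7% and 20% were lower. With the length trend taken out, the large subunit had 9 lower and 14 higher genes, with a median of 0.09, and the small subunit 6 lower and 4 higher. Scaling by library size alone gave 15 lower and 4 higher in the large subunit and 12 lower and 0 higher in the small and put the median of all genes at -0.06. The 1 higher small subunit gene was also lost under DESeq2, upper-quartile scaling and counts summed from transcripts. Leaving out any 1 library gave 7 to 10 lower small subunit genes. Without PSPC9 replicate 3 the large subunit had 3 higher genes and the small subunit 7 lower, and without PC9 replicate 3 the large subunit had 4 higher.

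**Figure D2:**
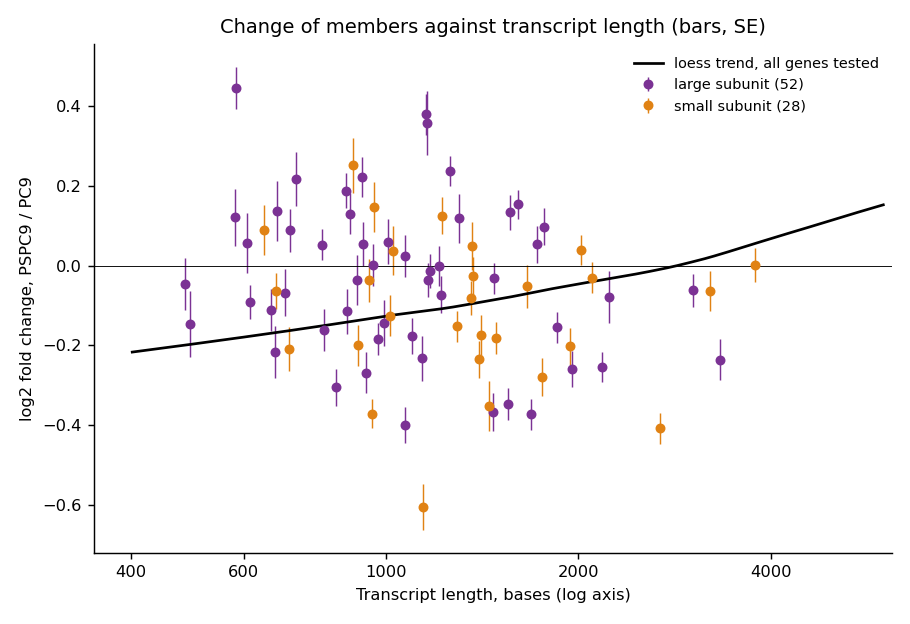
Change of each mitoribosomal gene, as log2(PSPC9/PC9) with its SE, against transcript length in bases on a log axis, for the large (purple) and small (orange) subunit. The black line is the loess trend over tested genes outside the members and the other lists, centred on its median. It lies below 0 over most of the lengths that the members have. The line uses the mean length weighted by counts and the points the length used for levels. The trend taken out of a gene can therefore differ from the line at its point, as for MRPL42 (0.04), MRPS23 (0.06) and PTCD3 (0.10).

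Within the large subunit the genes that fell furthest were MRPL16, MRPL44, MRPL10, MRPL45 and MRPL24. MRPL16 (uL16m; chr11:59806140-59810778 in GRCh38, GENCODE 44), which borders the site where peptide bonds are formed, was at 60.8, 62.3 and 58.5 CPM in PC9 and at 44.3, 46.5 and 46.9 CPM in PSPC9. All PSPC9 libraries lay below all PC9 libraries, a fall by 0.40 (SE 0.045, adjusted p = 1.39e-05). MRPL44 (mL44), a protein of the RNase III fold, had 100, 99.3 and 101 CPM in PC9 and 75.6, 80.3 and 76.1 CPM in PSPC9. Its groups were also apart, with a change of -0.37 (SE 0.039, adjusted p = 9.12e-06). MRPL10 (uL10m) carries the flexible stalk that recruits translation factors, and it was at 67.0, 73.7 and 71.3 CPM in PC9 against 53.1, 55.0 and 56.4 CPM in PSPC9. The PSPC9 libraries were again the lower ones throughout, by 0.37 on the log2 scale (SE 0.048, adjusted p = 4.68e-05). MRPL45 (mL45) anchors the particle to the inner membrane at the exit of the peptide tunnel. Its level was 78.3, 76.4 and 79.8 CPM in PC9 and 60.1, 62.2 and 62.3 CPM in PSPC9, without overlap, and fell by 0.35 (SE 0.040, adjusted p = 1.77e-05). MRPL24 (uL24m), at the same exit, went from 54.4, 51.4 and 50.7 CPM to 41.0, 42.9 and 42.7 CPM, a change of -0.30 (SE 0.046, adjusted p = 1.37e-04), and its groups did not overlap. These 5 falls passed the limit under every alternative run for them, which for MRPL45 left out the counts summed from transcripts. Only 0.26% of the counts of MRPL45 were on transcripts matched to the annotation, so the length used for its trend rests on few counts. A pseudogene of MRPL45, MRPL45P2, held 17 to 33 estimated counts per library.

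The largest rises were those of MRPL52, MRPL47, MRPL1, MRPL42 and MRPL18. MRPL52 (mL52; chr14:22829879-22835037) belongs to the central protuberance, the crest of the large subunit that faces the small one, and was at 20.5, 19.3 and 19.6 CPM in PC9 and at 26.9, 26.2 and 27.8 CPM in PSPC9. Every PSPC9 library was above every PC9 library, by 0.45 on the log2 scale (SE 0.052, adjusted p = 2.09e-05). MRPL47 (uL29m), on the rim of the exit tunnel, was at 53.7, 47.8 and 50.8 CPM in PC9 and at 63.5, 67.3 and 67.3 CPM in PSPC9. It rose by 0.38 (SE 0.051, adjusted p = 5.89e-05) with no overlap, while MRPL45 and MRPL24 at the same exit fell. MRPL1 (uL1m) has a bacterial counterpart that forms a mobile arm by which spent transfer RNA leaves. It had 16.3, 13.8 and 13.3 CPM in PC9 and 19.1, 17.6 and 18.8 CPM in PSPC9, a change of 0.36 (SE 0.081, adjusted p = 2.34e-03). The groups were apart, but the call was lost when PC9 replicate 3, PSPC9 replicate 1 or PSPC9 replicate 3 was left out, with changes between 0.30 and 0.47 over all alternatives. MRPL42 (mL42) went from 56.1, 54.6 and 55.5 CPM to 65.3, 65.5 and 65.1 CPM, and its 3 PSPC9 libraries all lay above the PC9 libraries (change 0.24, SE 0.038, adjusted p = 2.34e-04). MRPL18 (uL18m) of the central protuberance rose from 40.7, 38.4 and 39.6 CPM to 46.9, 43.7 and 47.8 CPM, by 0.22 (SE 0.050, adjusted p = 2.14e-03). It missed the limit under scaling by library size alone and without PC9 replicate 3 or PSPC9 replicate 3, at adjusted p-values of up to 0.016.

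**Figure D3:**
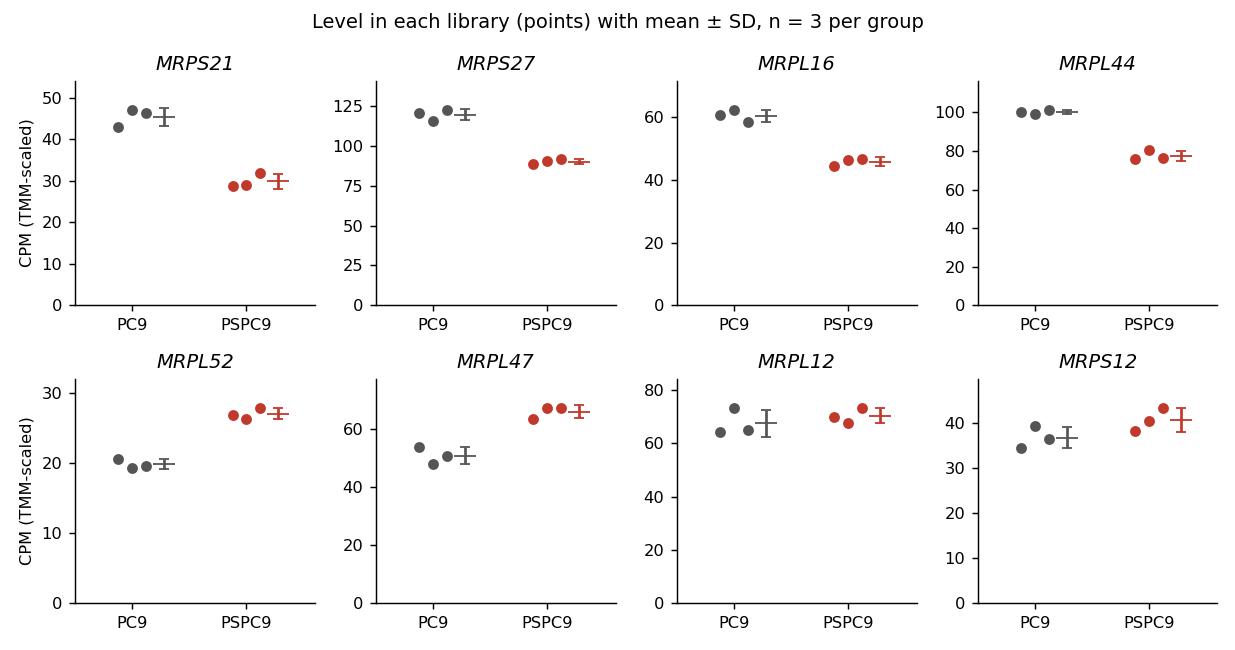
Level of 8 mitoribosomal genes in each library, in TMM-scaled CPM from 0 on a separate vertical axis for each gene, with the mean and SD beside the points (n = 3 per group, PC9 grey, PSPC9 red). MRPS21, MRPS27, MRPL16 and MRPL44 were lower and MRPL52 and MRPL47 higher in PSPC9 without overlap, and for MRPL12 and MRPS12 the libraries overlapped.

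Counts by place in the large subunit are of few genes each. They were not tested against all genes, of which 28.7% were higher and 28.1% lower. In the central protuberance 3 of 8 genes rose (MRPL52, MRPL18 and MRPL48) and 0 fell, with a median change of 0.13. The number that rose was 5 with the length trend taken out and 1 under scaling by library size alone, and 0 fell in either. MRPL48 lost its call under 5 of 16 alternatives. MRPL58 (mL62), a former peptide release factor built into the same protuberance, was at 33.7, 33.4 and 32.3 CPM in PC9 and 34.3, 37.7 and 36.9 CPM in PSPC9 and did not pass (0.13, SE 0.051, adjusted p = 0.041), although its groups did not overlap. Of the 7 genes at the exit tunnel and its rim 2 fell, MRPL45 and MRPL24, and 1 rose, MRPL47. Of 2 tunnel wall proteins, MRPL4 (uL4m) had a change of 0.12 (SE 0.061) with overlapping groups and MRPL22 (uL22m) one of -0.16 (SE 0.052, adjusted p = 0.018) with PSPC9 below PC9 in all libraries. At the peptidyl transferase centre MRPL3 (uL3m) rose by 0.15, a call lost under 5 of 16 alternatives, and MRPL16 fell, of 4 genes. The stalk held 2 falls among 5 genes. MRPL11 (uL11m), at the stalk base, was at 99.7, 99.3 and 104 CPM in PC9 and 85.5, 90.1 and 90.8 CPM in PSPC9, a fall by 0.18 (SE 0.041, adjusted p = 2.09e-03) that missed the limit with the length trend taken out, at -0.06, and without PC9 replicate 3 or PSPC9 replicate 1. MRPL12 (bL12m), which forms the stalk itself and also binds the mitochondrial RNA polymerase, was at 64.3, 73.2 and 64.96 CPM in PC9 and at 70.0, 67.7 and 73.3 CPM in PSPC9. These values overlapped, and the 95% interval of the change was -0.06 to 0.18.

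Both large subunit proteins with a small subunit symbol fell. MRPS30 (mL65) was at 137, 128 and 131 CPM in PC9 and at 120, 119 and 117 CPM in PSPC9, a change of -0.15 (SE 0.038, adjusted p = 4.14e-03). MRPS18A (mL66) went from 43.2, 44.8 and 44.4 CPM to 34.4, 38.3 and 40.0 CPM, a change of -0.23 (SE 0.057, adjusted p = 3.90e-03). Neither gene had overlapping groups, but MRPS30 lost its call under 5 alternatives and MRPS18A under 4, among them the length trend. GADD45GIP1 (mL64), also known as CRIF1 and needed to insert newly made peptides into the inner membrane, had a change of 0.10 (SE 0.047, adjusted p = 0.085). The other falls of the large subunit, between -0.27 and -0.18, were those of MRPL43, MRPL49, MRPL30, MRPL50 and MRPL28. MRPL49 and MRPL30 passed in all 16 alternatives. MRPL43 lost its call with the length trend taken out (-0.14, adjusted p = 0.027) and MRPL50 without PSPC9 replicate 2 (adjusted p = 0.0145). MRPL28 lost its call in 6 alternatives, with -0.07 and an adjusted p of 0.20 once the length trend was taken out, and also with the GC trend taken out and without PC9 replicate 2 or 3 or PSPC9 replicate 1 or 2.

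Calls in the small subunit were falls, apart from that of MRPS18C. MRPS21 (bS21m; chr1:150293861-150308979), a small protein with a bacterial counterpart, was at 43.0, 47.0 and 46.5 CPM in PC9 and at 28.9, 28.9 and 31.9 CPM in PSPC9. Its level was lower by 34.2% in the fit, with the groups far apart (change -0.60, SE 0.057, adjusted p = 3.65e-06). MRPS27 (mS27; chr5:72214953-72321717), a pentatricopeptide repeat protein, was at 121, 116 and 122 CPM in PC9 and at 88.4, 90.4 and 91.7 CPM in PSPC9. It fell by 0.41 (SE 0.039, adjusted p = 4.11e-06), and the alternatives gave values between -0.46 and -0.39. MRPS15 (uS15m), whose bacterial counterpart binds ribosomal RNA early in assembly, had 158, 155 and 161 CPM in PC9 against 122, 125 and 119 CPM in PSPC9, without overlap (change -0.37, SE 0.037, adjusted p = 5.73e-06). In the head, the part of the small subunit that swivels during translocation, MRPS31 (mS31) went from 18.9, 19.9 and 19.8 CPM to 16.2, 15.4 and 14.4 CPM and MRPS35 (mS35) from 154, 140 and 142 CPM to 123, 121 and 115 CPM. Both fell without overlap, by 0.35 (SE 0.062, adjusted p = 4.54e-04) and 0.28 (SE 0.047, adjusted p = 3.07e-04). The value for MRPS31 carries an uncertainty of counting, since its pseudogenes MRPS31P4 and MRPS31P5 held 101 to 142 and 97 to 118 estimated counts per library. These 5 genes passed the limit under every alternative run for them.

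Of the 12 small subunit proteins without a bacterial homolog, 8 were lower and 0 higher, and the estimate was below 0 for all 12, with a median of -0.20. Of the 16 with a bacterial homolog, 3 were lower (MRPS21, MRPS15 and MRPS2) and 1 was higher, with a median of -0.01. The difference between these classes was not tested. Of these falls, those of MRPS33 and MRPS34, without a bacterial homolog, lost their call under 6 and 5 of 16 alternatives, and that of MRPS2 under 5. For each of them this included leaving out single libraries and taking out the length trend. With the length trend taken out, 4 of the 12 were lower and 0 higher, all 12 estimates still below 0, beside 2 lower and 4 higher of the 16. In the large subunit 7 of 22 proteins without a bacterial homolog were lower and 3 higher, beside 6 lower and 4 higher of 30 with one. Among the mitochondrion-specific small subunit proteins, DAP3 (mS29), a GTP-binding protein of the head also studied in cell death, was at 100, 94.2 and 95.8 CPM in PC9 and 86.3, 83.6 and 86.2 CPM in PSPC9. PTCD3 (mS39), a pentatricopeptide repeat protein at the messenger RNA entry, was at 49.5, 46.3 and 47.2 CPM against 42.5, 40.8 and 41.0 CPM. Neither gene had overlapping groups, and their changes were -0.18 (SE 0.040, adjusted p = 2.05e-03) and -0.20 (SE 0.045, adjusted p = 2.19e-03). DAP3 missed the limit with the length trend taken out and without PSPC9 replicate 2, and PTCD3 without PSPC9 replicate 2 or PSPC9 replicate 3.

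The 3 MRPS18 paralogs, related to a single bacterial protein but incorporated at different places, did not move alike. MRPS18C (bS18m), which takes the place of the bacterial protein, was at 13.3, 11.7 and 13.2 CPM in PC9 and at 14.9, 15.5 and 15.2 CPM in PSPC9. It was the 1 small subunit gene that rose (0.25, SE 0.069, adjusted p = 7.18e-03), and this call was lost under 9 of 16 alternatives, at adjusted p-values of up to 0.030. MRPS18B (mS40) of the small subunit was at 81.9, 86.5 and 91.7 CPM in PC9 and at 73.4, 74.7 and 72.9 CPM in PSPC9. It fell by 0.23 (SE 0.047, adjusted p = 1.05e-03) without overlap, but not with the length trend taken out (-0.14, adjusted p = 0.019). MRPS18A of the large subunit fell by a like amount. MRPS12 (uS12m), a protein of the decoding centre, was at 34.4, 39.2 and 36.4 CPM in PC9 and 38.1, 40.4 and 43.2 CPM in PSPC9. The groups overlapped, and the interval of its change was 0.01 to 0.29 (adjusted p = 0.057). MRPS36 was at 19.5, 17.4 and 17.5 CPM in PC9 and 16.5, 16.6 and 16.3 CPM in PSPC9 and did not pass (-0.14, SE 0.062, adjusted p = 0.062).

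Summed over its 52 genes, the large subunit took 2808, 2824 and 2822 CPM in PC9 and 2661, 2737 and 2762 CPM in PSPC9. The small subunit took 1776, 1775 and 1778 CPM in PC9 and 1587, 1614 and 1599 CPM in PSPC9. The sums were lower in PSPC9 in all libraries of both subunits, with differences of -3.49% for the large and -9.93% for the small. As for single genes, these sums are relative to the other RNA sequenced, scaled by TMM, and are not amounts per cell. As plain shares of the counts, the large subunit took 0.284%, 0.289% and 0.288% in PC9 and 0.263%, 0.267% and 0.270% in PSPC9. For the small subunit the shares were 0.180%, 0.182% and 0.181% in PC9 and 0.157%, 0.157% and 0.157% in PSPC9.

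Levels were compared between genes only after division by transcript length (CPM per kilobase). In PC9 the median was 43.8 CPM per kilobase over the large and 38.3 over the small subunit, and in PSPC9 43.4 and 35.4. Within the large subunit the highest level was 21.8 times the lowest in PC9, and within the small subunit 18.0 times, although each protein is present once in a particle or, for MRPL12, in several copies. MRPL51 (mL51) had the highest level, 188 ± 4.63 CPM per kilobase in PC9 and 195 ± 6.40 in PSPC9 (SD, n = 3). MRPS15 followed with 166 ± 3.15 and 128 ± 3.09, and MRPS24 (uS3m) with 116 ± 5.13 and 112 ± 2.79. The lowest levels were those of MRPL50 (mL50) at 10.3 ± 0.498 and 8.73 ± 0.242, MRPS25 (mS25) at 9.20 ± 0.0593 and 8.81 ± 0.410, and MRPL57 (mL63) at 8.61 ± 0.592 and 8.15 ± 0.329. MRPS25 and MRPL57 were not separated by more than their SD in PC9, and the 3 genes have transcripts of over 2 kilobases. The order of the 80 genes was nearly the same in PC9 and PSPC9 (Spearman rho 0.955 across genes, which are not independent replicates). Among these 6 genes MRPS15 and MRPL50 fell. The other 4 did not pass the limit, with changes of 0.05 for MRPL51, -0.06 for MRPS24, -0.06 for MRPS25 and -0.08 for MRPL57.

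**Figure D4:**
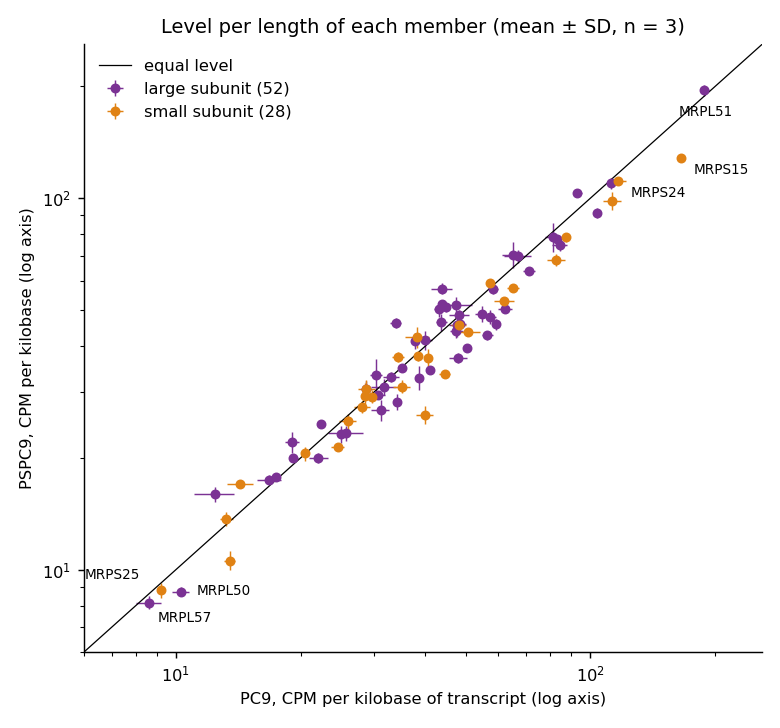
Level of each mitoribosomal gene per kilobase of transcript in PC9 (horizontal) and PSPC9 (vertical), both on log axes, as mean and SD of 3 libraries, with the large subunit in purple and the small in orange. Most genes lie close to the line of equal level over a range from 8.61 (MRPL57) to 188 (MRPL51) CPM per kilobase in PC9, and MRPS15 lies below it.

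Few single transcripts of these genes passed the limit. Of 538 annotated transcripts of the 80 genes 295 were tested, and 6 were lower and 3 higher at the limit of 0.01, or 2.03% and 1.02%, beside 3.91% and 3.89% of all transcripts. The 6 that fell were the canonical transcripts of MRPL16, MRPL30, MRPL44, MRPS15, MRPS21 and MRPS35, each of a gene that fell. The canonical transcript of MRPL47 rose with its gene. The other rises were in minor transcripts. MRPS24-204, which has no defined coding sequence, was at 0.263, 0.299 and 0.272 CPM in PC9 and at 1.40, 2.06 and 2.28 CPM in PSPC9, and its share of the gene's transcript counts went from 0.350% ± 0.0121 to 2.55% ± 0.567 (SD, n = 3). ENST00000393733.6, a coding transcript of MRPL4 other than its canonical one, went from 5.82, 8.05 and 6.47 CPM to 13.02, 15.9 and 15.6 CPM, and its share from 7.87% ± 0.863 to 16.2% ± 0.630. For both transcripts the groups did not overlap (changes of 2.76, SE 0.33, adjusted p = 3.36e-03, and 1.13, SE 0.16, adjusted p = 6.33e-03).

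A shift in the shares of transcripts was tested in 62 of these genes with edgeR's diffSpliceDGE. With Simes p-values 0 of 62 passed the limit of 0.01, while 1.91% of all genes did and 3 members had an unadjusted p under 0.05. With the gene-level F test of the same tool 2 of the 62 members passed, beside 421 of all 10323 genes. They were MRPS24 (adjusted p = 1.37e-04) and MRPL4 (adjusted p = 2.31e-03), the genes of the transcripts just described.

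Mitoribosomal genes often stood head to head with another gene. Of the 80 genes 28 had a protein-coding neighbour on the opposite strand whose start lay within 1000 bases upstream, or 35%, against 12.7% of the 13532 protein-coding genes tested. The neighbour was tested for 27 of them. In these 27 pairs the member was called in 13 and the neighbour in 13, where 56.8% of all genes tested were called. Of all genes 28.1% were lower and 28.7% higher. In 4 pairs the member and its neighbour both fell: MRPS27 with PTCD2 (-0.31), MRPL49 with FAU (-0.33), MRPL30 with MITD1 (-0.49) and MRPS2 with C9orf116 (-0.51). In 3 pairs they went apart: MRPL43 fell and TWNK, the mitochondrial DNA helicase, rose by 0.22, MRPL50 fell and ZNF189 rose by 0.42, and PTCD3 fell and POLR1A, the catalytic subunit of RNA polymerase I, rose by 0.83. In 0 pairs did both rise. The numbers of pairs were not tested against those of other genes. FAU is also among the cytosolic ribosomal proteins described further on. With the length trend taken out FAU, MRPS2, MRPL43 and TWNK no longer passed (adjusted p = 0.040, 0.18, 0.027 and 0.017), and TWNK did not pass under library size alone either (adjusted p = 0.025). Taking out the length trend also added pairs. MRPS7 and its neighbour GGA3 then both rose (0.23 and 0.22, adjusted p = 1.16e-03 and 2.55e-03). MRPL27 then rose (0.36, adjusted p = 6.71e-04) and its neighbour EME1 fell (-0.35, adjusted p = 1.76e-03). The counting was not stated to use strand, so reads from starts that overlap cannot be told apart. MRPL46 and MRPS11 were each other's neighbour, 320 bases apart, and neither passed the limit.

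In the RefSeq promoter table, windows of 250 bases before and 50 after the start were found for 72 of the 80 genes. Those without one were MRPL10, MRPL13, MRPL15, MRPL2, MRPL21, MRPL23, MRPL35 and MRPS28. Each of 9 motifs was searched on both strands, and its share is given beside that of the 10814 windows of tested genes and of all 27305 windows. The ETS motif CCGGAAG, bound by GABP and its relatives, was in 40.3% of the members' windows, against 18.7% of tested genes and 10.7% of all. It was present in 9 of 23 windows of genes that fell, 5 of 8 of genes that rose and 15 of 41 of the rest. It is the capital stretch near the start of MRPS21 and the second of 4 capital stretches counted back from the start in MRPS31. MRPL16 had an ETS match across its start, which is not marked in the stretch shown. The YY1 motif AAGATGGCG was in 20.8% of the members' windows, against 3.77% of tested genes and 1.85% of all, after the start in 12 of its 15 members and before it in 3. Genes that fell held it in 5 of 23 windows, genes that rose in 2 of 8 and the rest in 8 of 41. The GC box GGGCGG, which with its reverse complement CCGCCC makes up the other capital stretches shown, was in 62.5% of the members' windows, below the 69.4% of tested genes and above the 44.6% of all. It was in 18 of 23 windows of genes that fell, 2 of 8 of genes that rose and 25 of 41 of the rest. The NRF1 motif GCGCANGCG was in 18.1%, against 14.3% of tested genes and 8.05% of all, in 4 of 23, 1 of 8 and 8 of 41. The E-box CACGTG was in 8.33%, against 9.84% and 7.43%, in 2 of 23, 1 of 8 and 3 of 41. The CCAAT box (CCAAT) was in 29.2%, against 36.3% and 35.7%, in 10 of 23, 3 of 8 and 8 of 41. The TATA box (TATAAA) was in 4.17%, against 5.65% and 12%, in 1 of 23, 0 of 8 and 2 of 41. The cyclic AMP response element TGACGTCA was in 0 of 72 windows, against 3% of tested genes and 1.98% of all, and the ATF4 and CHOP composite TGATGCAA in 0 of 72, against 0.499% and 0.923%. The differences between these shares were not tested. Matches of different motifs shared bases in 1 member's window. These are letters in a window and not measured binding.

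Genes that act with the mitoribosome were read from lists written from general knowledge. Their counts stand beside 28.1% lower and 28.7% higher of all genes tested, and the differences were not tested. The cytosolic ribosome, the other ribosome of the cell, fell nearly as a whole: 77 of 84 tested genes were lower and 2 higher, with a median of -0.56, and 74 and 1 with the length trend taken out. RPL3 had the smallest p-value, going from 1740, 1808 and 1806 CPM to 801, 824 and 838 CPM, a change of -1.12 (SE 0.035). In the nuclear-encoded subunits of oxidative phosphorylation, whose partners the mitoribosome makes, 25 of 80 were lower and 4 higher (median -0.13), but 11 lower and 15 higher (median 0.02) with the length trend taken out. Among those that fell were ATP5MC2 at -0.57, ATP5IF1, the inhibitor of the ATP synthase, at -0.60 and SDHA at -0.44. The 13 protein-coding genes of mitochondrial DNA, whose products the mitoribosome makes, were all estimated higher, with a median of 0.51. Of these genes 5 passed the limit (8 with the length trend taken out). MT-CO3 was at 2739, 1649 and 1951 CPM in PC9 and at 4010, 4486 and 4110 CPM in PSPC9 (change 0.99, SE 0.14, adjusted p = 9.44e-05). The sum of the 13 spread widely in PC9, from 18595 to 33346 CPM, and was 34248 to 40599 CPM in PSPC9, so PC9 replicate 1 came close to the lowest PSPC9 library.

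**Figure D5:**
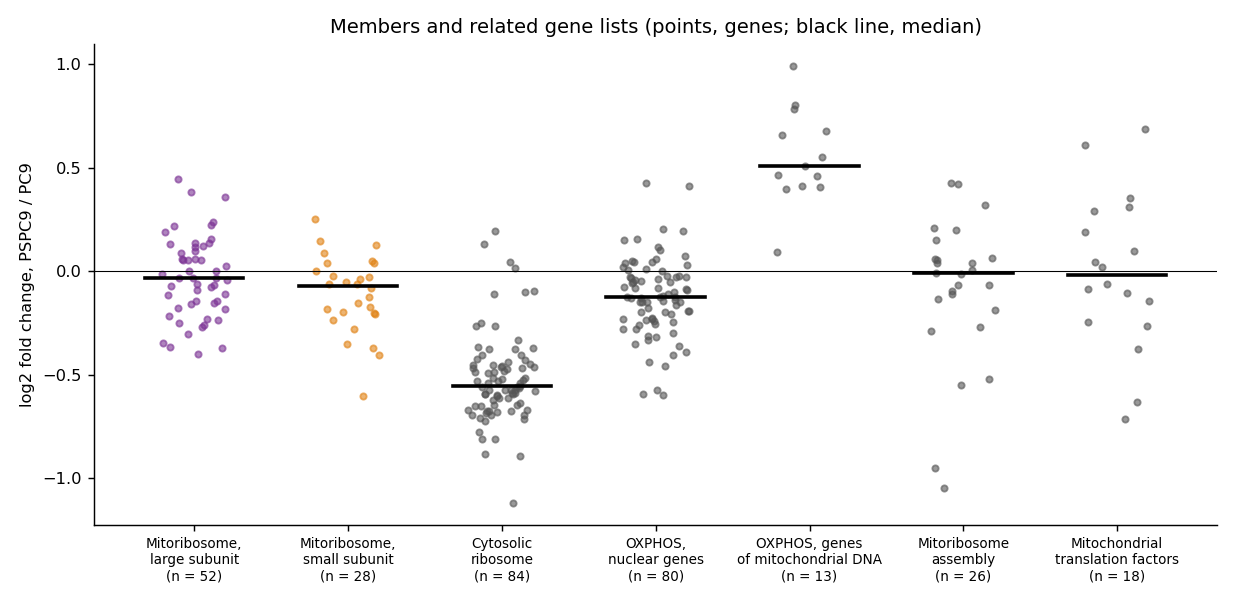
Change of each gene, as log2(PSPC9/PC9), in the mitoribosomal subunits and in 5 related lists, with a black line at the median of each list and the number of genes tested under its name. The mitoribosomal medians (-0.04 and -0.07) lie near 0, the cytosolic ribosome at -0.56 and the genes of mitochondrial DNA at 0.51.

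Of 26 assembly factors of the mitoribosome 5 were lower and 4 higher (6 and 2 under library size alone). These are 19.2% and 15.4%, beside 28.1% and 28.7% of all genes. NOA1, a GTPase needed to build the small subunit, went from 53.2, 59.1 and 57.0 CPM to 30.7, 28.5 and 28.4 CPM, a change of -0.95 (SE 0.054, adjusted p = 7.20e-08). TFB1M, which dimethylates the RNA of the small subunit, went from 9.56, 8.70 and 8.79 CPM to 4.56, 4.10 and 4.42 CPM, a change of -1.05 (SE 0.090, adjusted p = 1.73e-06). Both falls were larger than that of any protein of the particle. NGRN, which supports the RNA of the large subunit, rose by 0.42 (SE 0.036). Of 18 translation factors 5 fell and 6 rose, or 27.8% and 33.3%, near the shares of all genes. Among them were GFM2, which recycles ribosomes, at -0.72 and the release factor MTRF1L at 0.61. OXA1L, which inserts the new peptides into the inner membrane, was at -0.37. Of 18 genes for mitochondrial transcription and RNA processing 3 fell and 6 rose, or 16.7% and 33.3%. TRMT10C and KIAA0391, both subunits of mitochondrial RNase P, fell by 0.30 and 0.35, and PNPT1, a ribonuclease of the organelle, rose by 0.36. Of the 2 small subunit proteins outside the symbol rule CHCHD1 fell by 0.20 (SE 0.052, adjusted p = 5.14e-03) but did not pass with the length trend taken out, and AURKAIP1 had a change of 0.02 with overlapping groups. Of 10 proliferation markers 5 were higher in PSPC9, with PLK1 at 0.67, CCNA2 at 0.44 and CCNB1 at 0.39, and 2 lower, MCM2 at -0.37 and PCNA at -0.24 (4 higher and 3 lower under library size alone).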

How the data were processed

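Poly-A selected RNA of PC9 and PSPC9 (3 libraries each) had been sequenced with paired ends. The authors trimmed adaptors during conversion with bases2fastq, ran FASTP for quality control and estimated counts with Kallisto 0.46.1 against GRCh38.p13 (Ensembl), and deposited these estimated counts, rounded, for genes and for transcripts. Sleuth 0.30.0, named in the submitters' processing notes, and the libraries of another laboratory were not used here. No test takes account of reads that fit more than 1 transcript.

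Genes passing filterByExpr were tested in R 4.3.3 with edgeR 4.0.16 (TMM, glmQLFit, glmQLFTest, no block) and Benjamini-Hochberg adjustment over all genes, and the SE is the log2 fold change divided by the square root of F. Length per gene was weighted by the estimated counts of transcripts matched to GENCODE 44. For levels it was that of the canonical transcript for MRPL45, MRPS12 and MRPS36, whose counts matched by under 90% (0.26%, 50% and 0.67%). The weighted length of a member was a harmonic mean. For all genes, and for the length trend, it was an arithmetic mean, which for MRPL45, MRPS12 and MRPS36 used only the matched counts. The length trend was a loess fit over tested genes outside the members and the other lists, centred on its median. Lengths are annotated lengths, so levels of short transcripts are understated. Steps were tested on simulated data. DESeq2 1.42.0 and limma 3.58.1 served as alternatives.

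The genes and lists were chosen with earlier results of these data known. Named are the 5 largest called rises and falls of each subunit, the 3 highest and lowest levels per length, 16 genes with fixed roles and up to 3 called genes of each other list by p-value. Others complete a count and were chosen after their values were seen.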

Additional observations from a re-analysis of the deposited data

How the results depend on the processing

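No called gene among the 23 called of the 34 named mitoribosomal genes changed direction under any alternative run, and 13 of the 23 were called in all of them. Of 542 values of named genes under alternatives, 500 stayed on the same side of the limit, 33 fell below it, 7 rose past it and 2 changed sign: MRPL51 under scaling by library size alone (-0.00131) and MRPS24 with the length trend taken out (0.105). The large subunit median was 0.0888 with the length trend taken out, -0.0885 under library size alone and -0.0781 under upper-quartile scaling. That of the small subunit was -0.0866 with the GC trend taken out, -0.0975 with gene counts summed from transcripts, -0.126 under library size alone, -0.115 under upper-quartile scaling and -0.125 with subunits assigned by symbol. Higher large subunit genes numbered 14 with the length trend taken out and 4 under library size alone. Higher small subunit genes numbered 4 with the length trend taken out, 2 at an adjusted p under 0.05 and 0 under DESeq2, library size alone, upper-quartile scaling and counts summed from transcripts, and lower ones 6 with the length trend taken out. With a log2 fold change above 0.5 required as well, 0 large subunit genes were lower, 0 higher, 1 small subunit gene lower and 0 higher. Shifted transcript shares numbered 2 of 62 with the gene-level F test, beside 421 of all 10323 genes. The causes were not tested. Leaving out each library in turn gave 9 to 14 lower and 3 to 7 higher large subunit genes, 7 to 10 lower and 0 to 1 higher small subunit genes, and medians from -0.0487 to -0.0132 (large) and from -0.0958 to -0.0738 (small). The scalings of the other gene lists and of the members by place and origin were added after seeing the data. Counts summed from transcripts gave no value for MRPL45 and MRPS36.

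Deviations of PC9 and PSPC9 libraries of the same replicate number correlated at 0.124, 0.0236 and 0.0215, and those of different numbers between -0.117 and 0.0971. PSPC9 replicates 1 and 2 correlated best with the PC9 library of their own number, and PSPC9 replicate 3 with PC9 replicate 2. Such small correlations cannot decide whether the numbers pair the libraries. With the replicate number as a block, 13 large subunit genes were lower and 7 higher, 12 small subunit genes were lower and 1 higher, and 0 members shifted in transcript shares. With 3 libraries a group, counting error alone made up 12.9% to 82.2% of the variance of the members' changes (median 37.3%), and over 50% for 21 of the 80, such as MRPL39, so both depth and the spread between libraries limited precision.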
